A study of Mus musculus with 3 samples.

Results

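The genes described here carry glucose into the heart muscle cell and burn it: the glucose transporters Slc2a1 and Slc2a4, the enzymes of glycolysis, lactate dehydrogenase, the pyruvate dehydrogenase complex and the enzymes of the citric acid cycle. The list had 36 genes, and each was found among the gene spots of the array, with 63 probes in all, out of 41174 probes and 28090 gene names. Of these 63 probes, 52 from 32 genes were bright enough to test and never saturated, 9 from 8 genes were saturated on at least 1 array and are given apart, and 2 lay below the signal minimum.

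Lrrc10 encodes a leucine-rich repeat protein of heart muscle cells, and the study asked which transcripts differ in the heart when it is deleted. By the labels, on each of 3 Agilent whole mouse genome arrays (replicates 1 to 3), a pool of RNA from 2 Lrrc10-/- hearts carried Cy5 and a pool from 2 Lrrc10+/+ (WT) hearts carried Cy3. All mice were C57/BL6, 2 months old, fed freely and kept under the same light cycle, and no dye swap was made. The sample labels call the WT channel a reference pool while the methods describe independent replicates. In the first reading, with 1 WT pool for every array, the test of the ratio does not include how WT pools vary.

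The check of the deleted gene went against the labels. The Lrrc10 probe gave log2 ratios (Cy5 over Cy3) of 4.91, 5.56 and 5.65 on replicates 1, 2 and 3, with Cy5, the channel of the Lrrc10-/- label, brighter each time (mean 5.37 ± 0.41, SD, n = 3 arrays, limma adjusted p = 0.00025). This adjusted p was not under 0.05 with no signal minimum, without replicate 2 or by the methods' t-test, where 0 probes were called. Where the deletion lies relative to this probe was not examined here. Every direction below is therefore that of a channel, Cy5 (labelled Lrrc10-/-) or Cy3 (labelled WT), and not of a genotype. All 8 defining genes of heart muscle were well above background on every array and in either channel, and 7 of them had a saturated brightest probe. Precision is limited throughout by having 3 arrays.

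Glycolysis splits glucose to pyruvate in the cytosol and yields a little ATP without oxygen. Pyruvate dehydrogenase turns pyruvate into acetyl-CoA in the mitochondrion, and the citric acid cycle oxidises acetyl-CoA and hands the electrons to the respiratory chain. The adult heart draws most of its energy from fatty acids and shifts between fuels with supply, load and disease, and the insulin-responsive transporter Slc2a4 (GLUT4) and the hexokinases are the entry points of glucose.

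The probes behind the main values are 60-base oligonucleotides, of which the first 30 bases are printed here, 5' to 3'. The probes shown are those of Idh3a and Sucla2, the genes brighter in Cy5 on all arrays, of Hk2 and Eno1, whose ratios differed widely between arrays, and of Mdh2, which was saturated throughout.
Idh3a: gtgctggttgtatttattgtccgtctggta
Sucla2: tgtggtctctcctagtgtcccttttctttt
Hk2: tagtgagcgttttgtcatcatgtacagtag
Eno1: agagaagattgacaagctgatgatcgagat
Mdh2: tagtttgcgttgatggagggtgttgagtca

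No member probe passed the test across all probes. The mean log2 ratio of each of 29576 tested probes was tested against 0 with limma, and 2 probes were called at an adjusted p under 0.05 (0.00676%), both brighter in Cy5. Of the 61 member probes tested, 0 were called, and the lowest adjusted p of a member probe with limma was 1. At an unadjusted limma p under 0.05, 3 of 61 member probes passed, beside 3.07% of all tested probes. Of these 3, Idh3a was unsaturated, and the other probes, of Mdh2 and Aldoa, were saturated. On the same 3 ratios the methods' t-test called 0 probes after adjustment and 5 of 61 member probes without it, beside 4.21% of all tested probes. Of these 5, only 1 was unsaturated. Without replicate 3 limma called 543 probes, and without replicates 1 or 2 it called 1 and 0, with 0 member probes among them each time.

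The study's selection used a p under 0.05, a signal of at least 20 and a consistent 1.2-fold difference on all arrays. Which p was meant is not stated, and here the deposited p of each array had to be under 0.05. This reading took 271 probes (0.916%), 120 brighter in Cy5 (0.406%) and 151 brighter in Cy3 (0.511%). Among the members, 0 probes were selected as brighter in Cy5 and 2 as brighter in Cy3, the Mdh2 probe and an Aldoa probe, which were both saturated. With saturated probes left out, 0 member probes were selected. With the fold alone and no p, 5 of 61 member probes passed, beside 3.67% of all tested probes. The single unsaturated probe among those 5 was the brighter Sucla2 probe. The rule took more probes when it was read over 2 arrays. Without replicate 1 it took 3 of 61 member probes, beside 3.73% of all, and 0 of the 3 in Cy5 (2.25% of all). Without replicate 2 it took 6 member probes (4.09% of all), 4 of them in Cy5 (1.94% of all). Without replicate 3 it took 5 member probes (6.19% of all), 1 of them in Cy5 (3.95% of all). Of these 3, 6 and 5 member probes, 1, 4 and 3 were unsaturated.

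The ratios of the 32 genes with an unsaturated probe differed between arrays. Taking the brightest unsaturated probe of each gene, 26 of 32 genes were brighter in Cy5 on replicate 1, 4 of 32 on replicate 2 and 25 of 32 on replicate 3. Their median log2 ratio was 0.28, -0.45 and 0.31 on these arrays, and the median over the 3-array means was -0.03. Over all tested probes the medians were 0.01, 0.01 and -0.01. Replicate 2 thus stood on the other side of 0 from replicates 1 and 3, for the transport and glycolysis genes as for those of pyruvate dehydrogenase and the cycle. The median over the means was -0.06 for transport and glycolysis and 0.07 for pyruvate dehydrogenase and the cycle. These medians were -0.16 and -0.06 without replicate 1, 0.17 and 0.35 without replicate 2, and -0.26 and 0.0061 without replicate 3.

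**Figure D1:**
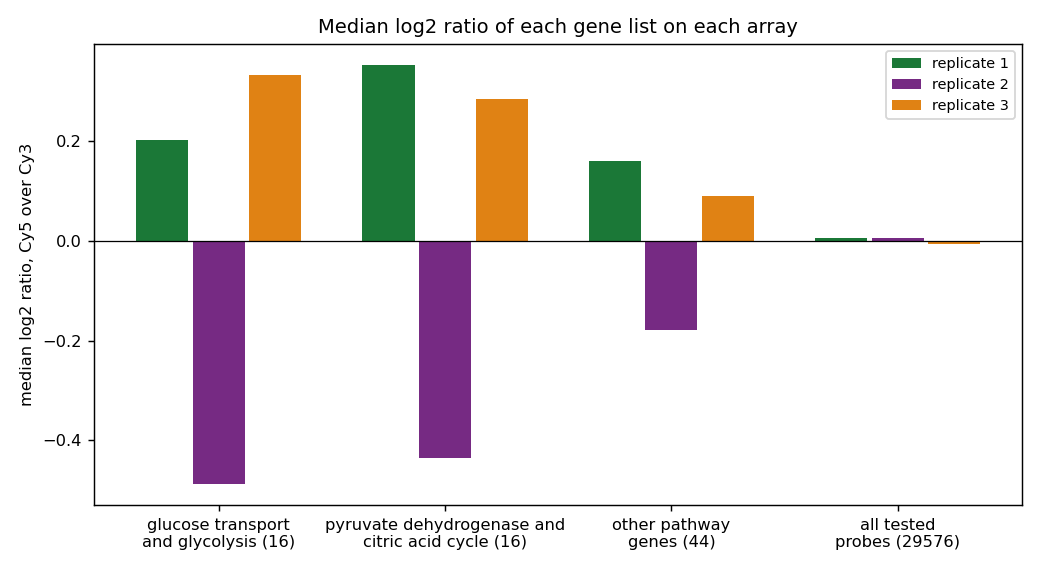
Median log2 ratio (vertical axis, Cy5 over Cy3) of each gene list on each of the 3 arrays (bars). The number of genes or probes stands under each group of bars. The transport and glycolysis genes had medians of 0.20, -0.49 and 0.33 and the pyruvate dehydrogenase and citric acid cycle genes 0.35, -0.44 and 0.28, while the medians over all tested probes lay within 0.01 of 0.

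The order above 0 on replicates 1 and 3 and below 0 on replicate 2 was found in 17 of 32 genes (53.1%) and in 25 of 52 unsaturated member probes (48.1%). It was found in 15.8% of all tested probes and in 21.0% of the 2161 unsaturated probes with a mean signal of at least 10000. By the p-value deposited for each spot, which covers the error within an array, 30 of 61 member probes were brighter in Cy3 on replicate 2, where 18.6% of all tested probes were. In Cy3, 7 of 61 were brighter on replicate 1 (13.0% of all) and 4 of 61 on replicate 3 (13.7% of all). In Cy5, 14 of 61 were brighter on replicate 1 (12.2% of all), 4 of 61 on replicate 2 (19.0% of all) and 21 of 61 on replicate 3 (14.9% of all). These counts include saturated probes. Among the 52 unsaturated member probes they were 4, 27 and 2 in Cy3 and 14, 4 and 20 in Cy5 on replicates 1, 2 and 3. The pattern was noticed in these data, so these shares describe the 3 arrays and test nothing.

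Repeat spots of a probe on an array differed little. The probe of Slc2a4 was printed 10 times on each array, and the SD between its spots was 0.071, 0.057 and 0.077 on the log2 scale, while the SD between arrays was 0.60. For Pgk1, which was also printed 10 times, the SD between spots was 0.033, 0.031 and 0.042 and that between arrays 0.30. Across the 32 genes the median SD between arrays was 0.50, and across all tested probes it was 0.39.

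**Figure D2:**
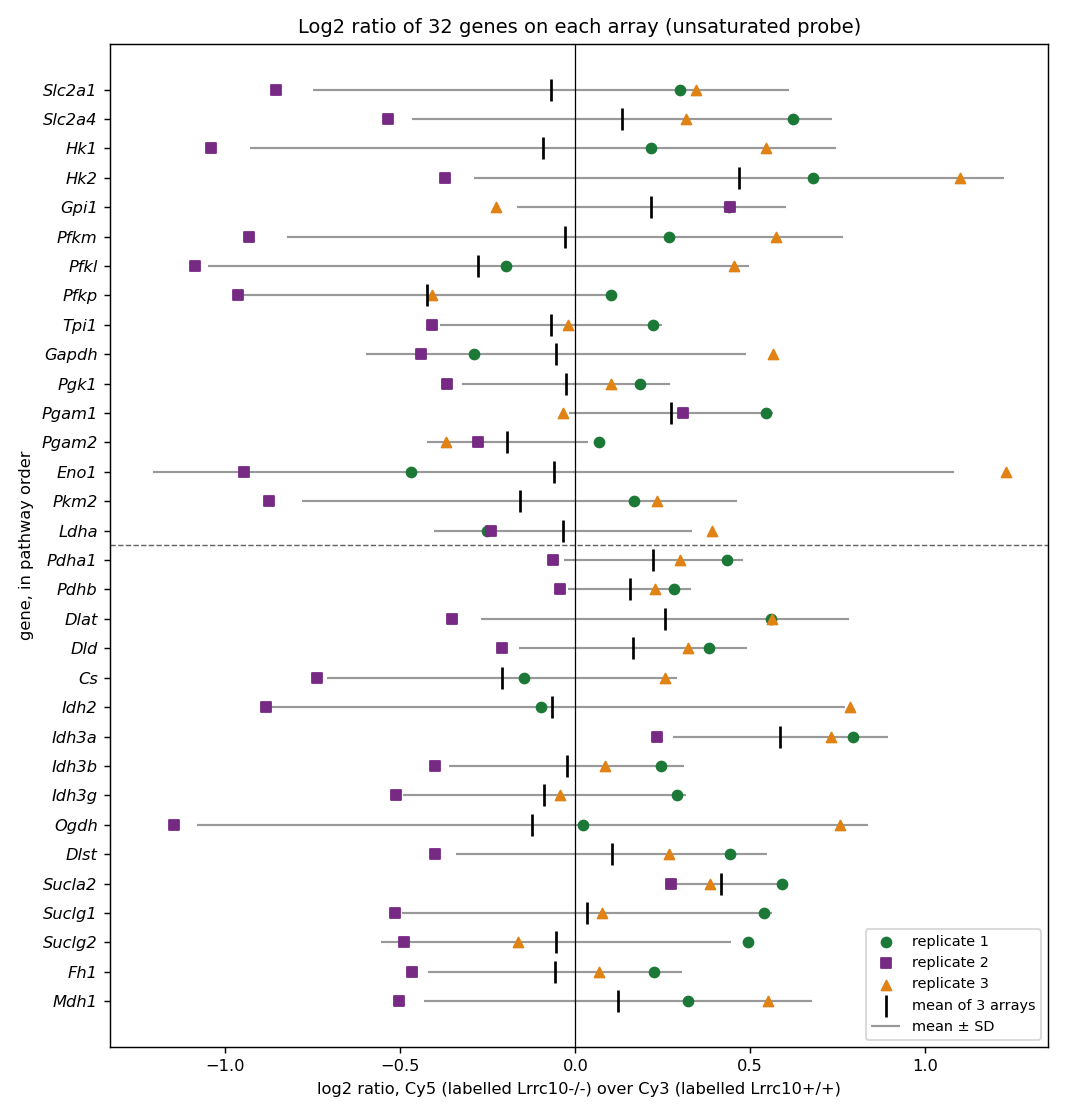
Log2 ratio (horizontal axis, Cy5 over Cy3) of 32 genes in pathway order, with 1 symbol for each array, a black tick for the mean of 3 arrays and a grey line for the mean ± SD. The dashed line parts transport and glycolysis from pyruvate dehydrogenase and the citric acid cycle. Replicate 2 lies left of 0 in all but 4 genes, and only Idh3a and Sucla2 have the symbols of all 3 arrays right of 0.

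Glucose entry followed this order. Slc2a1 (GLUT1), the basal glucose transporter, had log2 ratios of 0.30, -0.86 and 0.35, with a mean of -0.07 ± 0.68 (SD, n = 3). Slc2a4, the insulin-responsive transporter, had 0.62, -0.54 and 0.32, with a mean of 0.13 ± 0.60. The channels crossed between arrays for both transporters, and neither mean differed from 0 beyond the spread of the arrays.

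Hk2, the insulin-regulated muscle hexokinase that traps glucose as glucose 6-phosphate, varied widely between arrays. Its processed signal was 61291, 76360 and 43054 in Cy5 and 38308, 98784 and 20103 in Cy3 on replicates 1, 2 and 3. Cy5 was the brighter channel on replicates 1 and 3 and the dimmer on replicate 2. The log2 ratios were 0.68, -0.37 and 1.10, and the mean of 0.47 ± 0.76 (SD, n = 3) had a 95% interval of -0.19 to 1.13. With each array left out in turn the mean ran from 0.15 (without replicate 3) to 0.89 (without replicate 2). Hk1, the widely expressed hexokinase, was measured by 5 tested probes. On replicate 2, 4 of them lay between -1.25 and -1.04, and on replicate 3 the same probes lay between 0.55 and 1.50. The dimmest tested Hk1 probe was well above background on 2 of the 3 arrays, and its deposited ratio on replicate 2 was 0. That 0 was kept as a value in the test and in the mean over probes.

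The next steps commit glucose to glycolysis. The unsaturated probe of Gpi1, the isomerase that makes fructose 6-phosphate, read 0.44, 0.44 and -0.23. That probe had a mean signal of 172, while the partly saturated Gpi1 probe, at 117121, read 0.25, -0.66 and 0.34. Of the phosphofructokinases, which catalyse the committed step, the muscle isoform Pfkm read 0.27, -0.93 and 0.57, and the liver isoform Pfkl read -0.20, -1.09 and 0.45. The platelet isoform Pfkp read 0.10, -0.96 and -0.41, and its mean of -0.42 ± 0.53 (SD, n = 3) had a 95% interval of -0.98 to 0.13. That mean ran from -0.69 (without replicate 1) to -0.15 (without replicate 2). By these probes each phosphofructokinase gene had its lowest ratio on replicate 2.

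From triose to pyruvate the means lay between -0.19 and 0.27. Tpi1, which interconverts the trioses, had a mean of -0.07 ± 0.32 (SD, n = 3), and Gapdh, the dehydrogenase often used as a reference transcript, read -0.29, -0.44 and 0.57, with a mean of -0.05 ± 0.54. Pgk1, the first ATP-yielding enzyme of the pathway, read 0.18, -0.37 and 0.10 (mean -0.03 ± 0.30), and its other probe lay on the same side of 0 on every array. Of the phosphoglycerate mutases, Pgam1 read 0.55, 0.31 and -0.03 (mean 0.27 ± 0.29), and the muscle isoform Pgam2 read 0.07, -0.28 and -0.37 (mean -0.19 ± 0.23).

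Eno1, the widely expressed enolase, had the widest spread between arrays of the 32 genes by their chosen probe, though 3 of the dimmer Hk1 probes had a wider one (SD 1.22, 1.25 and 1.40). Its processed signal was 284, 424 and 364 in Cy5 and 394, 818 and 155 in Cy3, so Cy3 was brighter on replicates 1 and 2 and Cy5 on replicate 3. The log2 ratios of -0.47, -0.95 and 1.23 gave a mean of -0.06 ± 1.14 (SD, n = 3). Pkm2, the array's name for the pyruvate kinase gene Pkm, read 0.17, -0.88 and 0.23 (mean -0.16 ± 0.62). Ldha, the lactate dehydrogenase subunit that favours lactate formation, read -0.25, -0.24 and 0.39 (mean -0.04 ± 0.37).

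Over the 16 transport and glycolysis genes, 4 means lay above 0 and 12 below, from -0.42 to 0.47, with a median of -0.06. Over all tested probes, 14863 means lay above 0 and 14713 below. The split of the 16 depended on the processing. It was 11 and 5 with unnormalized signals and 9 and 7 after normexp background correction and loess. After normexp and median centring it was 15 and 1, where 21212 means of all tested probes lay above 0 and 8364 below. Over the 6 genes from hexokinase to phosphofructokinase the medians were 0.24, -0.95 and 0.50 on replicates 1, 2 and 3. Over the 7 genes from triose phosphate isomerase to pyruvate kinase they were 0.17, -0.41 and 0.10.

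All 4 genes of the pyruvate dehydrogenase complex had means above 0, and by its brightest probe each of the 4 was above 0 on replicates 1 and 3 and below 0 on replicate 2. Pdha1, the E1 alpha subunit, read 0.43, -0.06 and 0.30 (mean 0.22 ± 0.26, SD, n = 3). Pdhb, the E1 beta subunit, read 0.28, -0.04 and 0.23 (mean 0.15 ± 0.18). Dlat, the acetyltransferase core, read 0.56, -0.35 and 0.56 (mean 0.26 ± 0.53), and Dld, the E3 subunit shared with the 2-oxoglutarate dehydrogenase complex, read 0.38, -0.21 and 0.32 (mean 0.17 ± 0.33). The further Dld probes read 0.44, 0.01 and 0.46 and -0.43, -0.44 and 1.25, so the order did not hold for them. None of these means passed the test, and the 95% interval of each held 0.

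In the citric acid cycle, Idh3a and Sucla2 were the only 2 of the 32 genes brighter in Cy5 on all 3 arrays, and 0 genes were brighter in Cy3 on all 3. This count holds for the deposited scaling, since after normexp and loess 3 of 32 genes were above 0 on all arrays and 1 below, and after normexp and median centring 16 were above and 0 below. Idh3a, the catalytic subunit of the NAD-dependent isocitrate dehydrogenase, had a processed signal of 72941, 99454 and 72549 in the Cy5 channel and of 42099, 84528 and 43703 in the Cy3 channel. Its Cy5 signal was the higher on every array, though on replicate 2 the Cy3 signal was above the Cy5 signal of replicates 1 and 3. The log2 ratios were 0.79, 0.23 and 0.73, and the mean of 0.59 ± 0.31 (SD, n = 3), a 1.50-fold ratio, had a 95% interval of 0.11 to 1.06 and an adjusted p of 1 with limma (unadjusted p = 0.021). The mean was 0.85 after normexp and loess and 1.32 after normexp and median centring, with limma adjusted p of 0.689 and 0.069, and over the alternatives that give one the adjusted p ran from 0.069 to 1. Its interval was the only one of 32 that did not hold 0. The regulatory subunits of the same enzyme read otherwise. Idh3b read 0.24, -0.40 and 0.08, and Idh3g read 0.29, -0.51 and -0.04.

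Sucla2, the ADP-forming beta subunit of succinyl-CoA synthetase, gave, with its brighter probe, a processed signal of 104927, 158971 and 118257 in the Cy5 channel and of 69697, 131505 and 90571 in the Cy3 channel. Cy5 was the higher channel on every array. The log2 ratios of 0.59, 0.27 and 0.38 gave a mean of 0.42 ± 0.16 (SD, n = 3), a 1.33-fold ratio, with a 95% interval of -0.03 to 0.86. The mean was 0.20 after normexp and loess and 0.68 after normexp and median centring. The other bright Sucla2 probe read 0.36, 0.02 and 0.49. The other subunits of the synthetases did not share the sign on all arrays. Suclg1, the alpha subunit, read 0.54, -0.52 and 0.08, and Suclg2, the alternative, GDP-forming beta subunit, read 0.49, -0.49 and -0.17. Among all tested probes, 10.0% lay above 0 on every array and 11.0% below, and of the 61 member probes 5 lay above, from Dld, Idh3a, Sucla2 and Mdh1. The 6 member probes below 0 on all arrays were all saturated.

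The other enzymes of the cycle had means between -0.21 and 0.12. Cs, citrate synthase, which joins acetyl-CoA to oxaloacetate, read -0.15, -0.74 and 0.26 (mean -0.21 ± 0.50, SD, n = 3). Idh2, the mitochondrial NADP-dependent isocitrate dehydrogenase, read -0.10, -0.88 and 0.79 (mean -0.07 ± 0.84). Ogdh, the E1 subunit of 2-oxoglutarate dehydrogenase, read 0.02, -1.15 and 0.76 (mean -0.12 ± 0.96), and Dlst, its E2 subunit, read 0.44, -0.40 and 0.27 (mean 0.10 ± 0.45). The SD of Idh2 and Ogdh lay above the median SD of the 32 genes. Fh1, fumarate hydratase, read 0.22, -0.47 and 0.07 (mean -0.06 ± 0.36), and Mdh1, the cytosolic malate dehydrogenase of the malate-aspartate shuttle, read 0.32, -0.50 and 0.55 (mean 0.12 ± 0.55).

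Over the 16 genes of pyruvate dehydrogenase, the cycle and Mdh1, 9 means lay above 0 and 7 below, with a median of 0.07. The split was 12 and 4 with unnormalized signals, 9 and 7 after normexp and loess, and 16 and 0 after normexp and median centring. Of all 32 genes, 25 had a mean within 0.25 of 0 on the log2 scale, and 31 had a 95% interval that held 0. The interval reached 0.54 to either side of the mean at the median over genes, and from 0.45 to 0.91 over all 32. These intervals are not adjusted for the number of probes. These hearts were measured in bulk, in which fewer cells of a type and less RNA per cell cannot be told apart.

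The 9 saturated probes are described apart. Aldoa (aldolase, both probes), Eno3 (muscle enolase), Ldhb (the heart lactate dehydrogenase subunit) and Mdh2 (the mitochondrial malate dehydrogenase of the cycle) had saturated probes only, and Gpi1, Ldha, Cs and Mdh1 had 1 saturated probe each beside an unsaturated one. Saturation was partial for a few. The Ldha probe was saturated on 1 array, in Cy5 alone, and read 0.16, -0.04 and 0.55. The Gpi1 probe was saturated on 1 array in Cy5 and on 1 in Cy3 and read 0.25, -0.66 and 0.34. The Cs probe, saturated in Cy5 on all arrays, read 0.16, -0.23 and 0.12. The Mdh1 probe, likewise saturated, read -0.27, -0.39 and -0.36, where the unsaturated Mdh1 probe described above had a mean of 0.12. The Mdh2 probe was saturated in both channels of all arrays. Its unnormalized log2 ratio was within 0.0021 of 0, and the deposited normalization turned this into -0.96, -0.60 and -0.65. A total of 7 probes of 6 genes were saturated in Cy5 on all arrays. The deposited log2 ratios of Eno3 were -0.66, -0.33 and -0.26, those of Ldhb -0.02, -0.32 and -0.27, and those of the Aldoa probe selected above -0.88, -0.62 and -0.67. The other Aldoa probe read -0.31, -0.17 and -0.16. These are the ratios as deposited, and no size of difference is read from them where a channel was saturated, since a spot at the ceiling of the scanner gives only a lower limit of its signal.

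**Figure D3:**
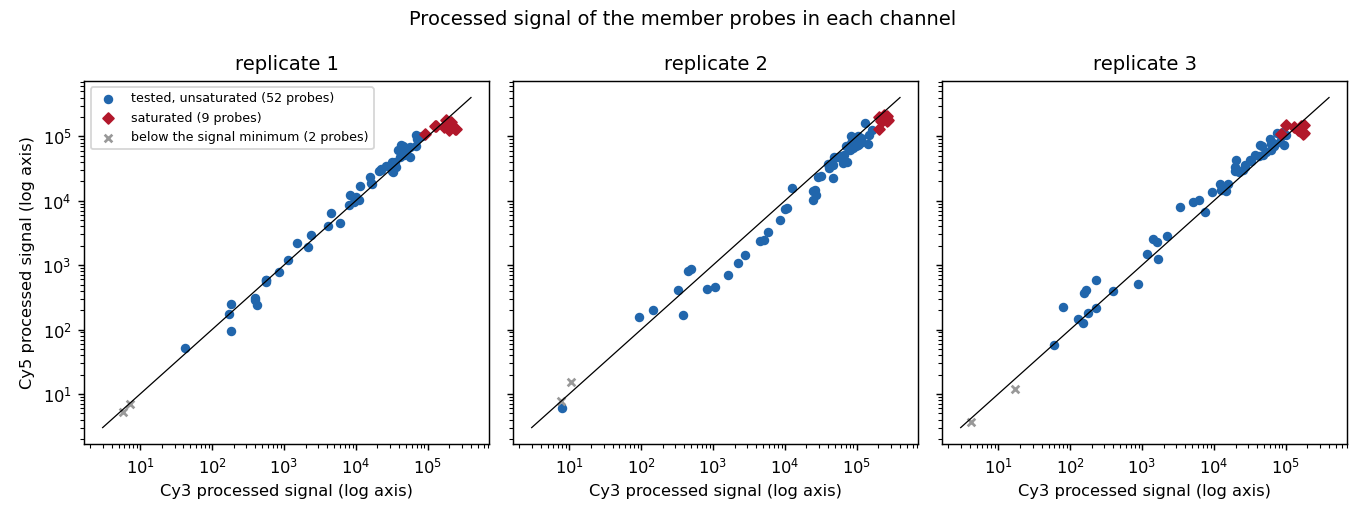
Processed signal of the member probes in Cy5 (vertical log axis) against Cy3 (horizontal log axis), 1 panel for each array. Points are probes, by whether they were saturated, and the line marks equal signal. On replicate 2, 10 of the 52 unsaturated probes lie above the line, and the saturated probes crowd the upper right corner on all arrays.

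Of the 32 genes, 13 had several unsaturated tested probes. The probe means of 10 of these 13 lay on 1 side of 0, and in 6 genes (Pgk1, Pdha1, Pdhb, Dlat, Ogdh and Sucla2) all probes lay on the same side on every array. Some probes the array ties to another sequence record than a RefSeq transcript went the other way. On replicate 2, 5 of 8 such probes lay above 0 (of Gpi1, Pfkp, Pkm2, Dlst and Mdh1), against 5 of 44 probes tied to a RefSeq transcript. This split was noticed after the values had been seen. The 5 above 0 had mean signals of 172, 297, 130, 625 and 515, in the order named. The rest of the 8, of Hk1, Pkm2 and Dld, lay below 0 there and were brighter, at 20427, 14160 and 38301. Within the 8, sequence record and brightness thus cannot be told apart. The dimmer Pkm2 probe of this kind read -0.93, 0.72 and 0.15, and the Dlst probe -0.02, 0.79 and -0.80.

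The pattern across arrays depended in part on how the signals were put on a common scale. With unnormalized signals, centred on each array's median, the 32 genes had medians of 0.48, -0.41 and 0.28. With normexp background correction and loess they had 0.23, -0.42 and 0.21. With normexp and median centring alone they had 0.59, 0.03 and 0.82, while the median over all tested probes was itself 0.11, 0.11 and 0.20. In all these settings replicate 2 had the lowest median of the 3 arrays, and in the last it was not below 0. The pattern was read under these settings after it had been seen.

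**Figure D4:**
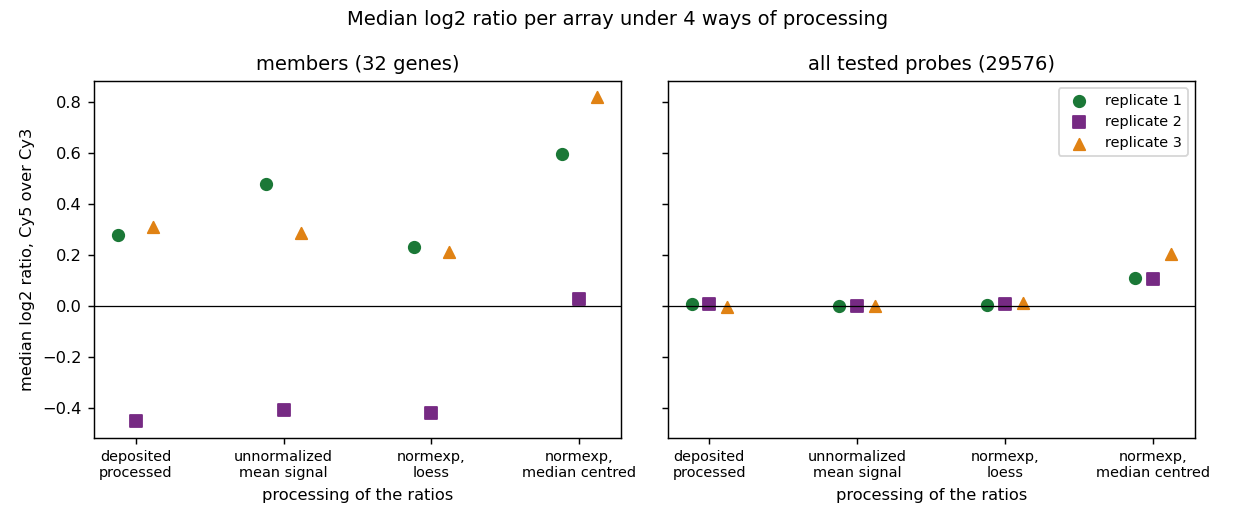
Median log2 ratio (vertical axis, Cy5 over Cy3) on each of the 3 arrays under 4 ways of processing the signals, for the 32 genes and for all tested probes in separate panels. Replicate 2 is the lowest of the arrays for the 32 genes each time, at -0.45, -0.41, -0.42 and 0.03.

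Markers of other tissues also differed between arrays. The 4 atrial genes had a median log2 ratio of -0.16, 2.41 and -0.99 on replicates 1, 2 and 3. Myl7, the atrial myosin light chain, read -0.21, 3.41 and -1.27, and Sln (sarcolipin) read 0.08, 3.69 and -1.15, so both were brightest in Cy5 on the array on which most of the 32 genes were brightest in Cy3. On replicates 1 and 3 their processed signals were low, at 84 to 203 for Myl7 and 43 to 94 for Sln. On replicate 2 they were 3021 and 1264 in Cy5 and 285 and 98 in Cy3. Myl4, also of this list, read -0.12, 1.41 and 0.23. Each of the 4 atrial genes was above background throughout, and their summed signal ran from 43600 to 84100 in Cy5 and from 76800 to 121000 in Cy3, most of it from Nppa. Nppa, the atrial natriuretic peptide, was selected as brighter in Cy3 on all 3 arrays (-0.89, -0.61 and -0.82). The part of atrial tissue in the ratios of the 32 genes was not tested.

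The 3 heart muscle genes with an unsaturated tested probe had medians of -0.06, -0.76 and 0.29. Tnnt2 and Myl2 were selected as brighter in Cy3, with saturated probes. The 4 fat genes found had medians of 0.99, -0.23 and -1.24, with summed signals from 171000 to 253000 in Cy5 and from 181000 to 218000 in Cy3, and 3 of them were well above background on all arrays in Cy5 and 2 in Cy3. The 3 red blood cell genes with an unsaturated probe had 0.45, 1.02 and -0.32, and the 4 genes of that list, all well above background, summed to 217000 to 352000 in Cy5 and 208000 to 287000 in Cy3. The 8 skeletal muscle genes tested had medians of -0.14, 0.32 and -0.08, and Actn3, a defining gene of fast skeletal muscle, was not well above background on any array. Endothelial genes had medians of 0.20, -0.48 and -0.17, fibroblast and matrix genes 0.43, -0.47 and -0.04, smooth muscle genes 0.40, -0.74 and 0.47, and leukocyte genes -0.26, 0.13 and -0.01. All 3 smooth muscle genes were well above background on all arrays, with summed signals of 2590 to 3300 in Cy5 and 2110 to 5400 in Cy3, and this list had the same order of signs as the 32 genes. The part of these cell types in the ratios of the 32 genes was not tested.

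The base composition of the probes is given as a description, across probes that share arrays. The 52 unsaturated member probes had a GC content of 35.0% to 55.0%, with a median of 43.3%. The correlation of GC content with the log2 ratio over these 52 probes was -0.13, -0.42 and 0.10 on replicates 1, 2 and 3, and over all tested probes it was -0.05, -0.10 and -0.04. The part of base composition in the ratios was not tested.

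The medians of further genes of the same pathways had the same signs as those of the 32 genes and were smaller in size. Of 51 such genes, among them the pyruvate dehydrogenase kinases, the monocarboxylate transporters, aconitase, succinate dehydrogenase and the malic enzymes, 48 were on the array and 44 had an unsaturated tested probe. Their medians were 0.16, -0.18 and 0.09, and 15 of 44 were above 0 on replicate 2, beside 50.5% of all tested probes. The order above 0 on replicates 1 and 3 and below 0 on replicate 2 stood in 34.1% of the 44, beside 15.8% of all tested probes. These shares were not tested. Of their 73 tested probes, 0 were called by limma, 0 were selected by the study's rule and 2 had an unadjusted limma p under 0.05.

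The promoters of the members were searched for ACGTG on either strand, the core of the sites bound by hypoxia-inducible factors and by many E-box factors, in the 250 bases before each start listed for a gene (RefSeq, GRCm38.p6), and a gene was counted if any of its windows held the motif. The motif stood in 8 of 18 transport and glycolysis genes (44.4%), in 4 of 16 genes of pyruvate dehydrogenase, the cycle and Mdh1 (25.0%) and in 18.5% of all 27025 genes. Some genes have several windows, and over all 32851 windows the share was 16.6%. AAGGTCA, a site for estrogen-related receptors, stood in 1 of 18 and 0 of 16 genes and in 4.7% of all genes. A match is a description of these letters and not a site. The promoters of Pgk1, at chrX:106186850-106187099, and of Ldha, at chr7:46845554-46845803, both on the plus strand, are shown as the glycolytic examples, with ACGTG and its reverse complement CACGT in capitals.
Pgk1: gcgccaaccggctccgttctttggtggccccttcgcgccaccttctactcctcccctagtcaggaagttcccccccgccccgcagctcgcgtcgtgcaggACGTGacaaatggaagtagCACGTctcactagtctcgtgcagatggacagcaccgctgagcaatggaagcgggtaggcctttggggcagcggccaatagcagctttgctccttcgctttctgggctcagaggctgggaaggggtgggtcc
Ldha: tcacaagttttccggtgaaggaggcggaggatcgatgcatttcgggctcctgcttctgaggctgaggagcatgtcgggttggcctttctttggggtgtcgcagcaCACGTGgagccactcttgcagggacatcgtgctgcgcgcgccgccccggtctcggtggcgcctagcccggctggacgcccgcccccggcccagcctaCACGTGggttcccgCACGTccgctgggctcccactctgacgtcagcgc
The motif stood 2 times in the Pgk1 window and 5 times in that of Ldha, counting both strands, and in CACGTG the matches on the strands overlap. Both genes had means within their spread of 0 (Pgk1 -0.03 ± 0.30 and Ldha -0.04 ± 0.37, SD, n = 3).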

How the data were processed

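RNA from pooled hearts was measured on 3 two-channel Agilent arrays, and all 3 form 1 group. For each array the authors deposited a scanner table from Agilent Feature Extraction 9.1.3.1. Processed signal intensities were deposited after local background subtraction and a linear and lowess normalization of the dyes, while mean signal intensities were left unnormalized. The deposited log10 ratio divides the processed Cy5 by the processed Cy3 signal, and the deposited p-value belongs to 1 spot on 1 array. The second deposited table of log10 ratios equalled these apart from 1 missing value.

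Of 45018 spots, 43379 were gene spots, and 11, 21 and 4 outlier spots were left out on replicates 1, 2 and 3. Ratios were converted to log2, and repeat spots were averaged per probe. Probes with a mean signal of at least 20 over channels and arrays were tested against 0 with limma 3.58.1 in R 4.3.3 (eBayes with an intensity trend, two-sided, Benjamini-Hochberg over 29576 probes). With 3 arrays an exact sign-flip test of a single value cannot go below p = 0.25. For values per gene the brightest unsaturated probe stood for its gene. Of 63 member probes 54 carried a RefSeq accession that matched the reference table, and Pkm2 is there named Pkm. Neither slide nor scan could be tested as a batch, since all arrays had the same. Alternatives were the signal minimum (none or 50), normexp background correction (offset 50) with loess or median centring, the methods' t-test, the choice of probe and each array left out. Every member with a probe is named, and of the other lists those genes called or selected, while Myl4, Myl7, Sln and Actn3 were named after their values had been seen. The members, lists and alternatives were chosen with earlier results of these data known. Sequences came from the scanner output and from RefSeq. Promoters of Slc2a4 and Idh3a were not analysed here.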

Additional observations from a re-analysis of the deposited data

How the results depend on the processing

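By limma's adjusted p, 0 member probes were called under every alternative run, and the series' second table gave the same ratios.

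Probes called by limma, 2 in all and both brighter in Cy5, numbered 0 without a signal minimum, 1 at a minimum of 50 and 1 after normexp and loess. In limma's place, the methods' t-test called 0 after adjustment and 1244 unadjusted (594 in Cy5, 650 in Cy3, 5 member probes). The 271 selected probes became 135 after normexp and loess (60 in Cy5, 75 in Cy3), 90 after normexp and median centring (9 in Cy3) and 1084 by fold alone (507 and 577). In both normexp settings the p of each array was still the deposited one, which belongs to the processed ratios. Counts of selected probes and members there thus mix scalings, and a probe without a deposited p under 0.05 could not be selected. The 2 selected member probes, both in Cy3, became 0 after normexp and median centring, 0 without saturated probes and 5 by fold alone (1 in Cy5, 4 in Cy3). Leaving out an array gave 0 (replicate 2) to 543 (replicate 3) probes called, 0 to 409 in Cy5 and 0 to 134 in Cy3; 1103 to 1832 selected, 573 to 1167 in Cy5 and 439 to 665 in Cy3; and 3 to 6 selected members, 0 to 4 in Cy5 and 2 to 4 in Cy3.

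After normexp and median centring the medians were 0.48 for transport and glycolysis, 0.51 for pyruvate dehydrogenase and the cycle and 0.35 for the other pathway genes, beside 0.16 over all tested probes. The means that changed sign there were those of Slc2a1 0.50, Hk1 0.38, Pfkm 0.59, Pfkp 0.015, Tpi1 0.46, Gapdh 0.63, Pgk1 0.51, Pgam2 0.27, Eno1 0.18, Pkm2 0.29, Ldha 0.64, Cs 0.37, Idh2 0.53, Idh3b 0.21, Idh3g 0.33, Ogdh 0.21, Suclg2 0.28 and Fh1 0.49. After normexp and loess they were Slc2a1 0.12, Pfkm 0.11, Gapdh 0.17, Pgk1 0.051, Ldha 0.19, Pdhb -0.014, Idh2 0.068, Dlst -0.086 and Fh1 0.025. The mean over probes gave Hk1 0.012 and Pgk1 0.039, and the brightest probe, saturated or not, Gpi1 -0.023, Ldha 0.22, Cs 0.017 and Mdh1 -0.34. The cause was not tested.

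With each array left out in turn, 21 of 32 genes changed sign, with these lowest and highest means: Cs -0.44 to 0.055, Dlst -0.066 to 0.36, Eno1 -0.71 to 0.38, Fh1 -0.20 to 0.15, Gapdh -0.37 to 0.14, Hk1 -0.41 to 0.38, Idh2 -0.49 to 0.34, Idh3b -0.16 to 0.16, Idh3g -0.28 to 0.12, Ldha -0.25 to 0.074, Mdh1 -0.092 to 0.44, Ogdh -0.56 to 0.39, Pfkl -0.64 to 0.13, Pfkm -0.33 to 0.42, Pgk1 -0.13 to 0.14, Pkm2 -0.35 to 0.20, Slc2a1 -0.28 to 0.32, Slc2a4 -0.11 to 0.47, Suclg1 -0.22 to 0.31, Suclg2 -0.33 to 0.16 and Tpi1 -0.22 to 0.10. The other 11 kept their sign, at 0.10 to 0.56 for Dlat, 0.056 to 0.35 for Dld, 0.11 to 0.44 for Gpi1, 0.15 to 0.89 for Hk2, 0.48 to 0.76 for Idh3a, 0.12 to 0.37 for Pdha1, 0.092 to 0.25 for Pdhb, -0.69 to -0.15 for Pfkp, 0.14 to 0.43 for Pgam1, -0.32 to -0.11 for Pgam2 and 0.33 to 0.49 for Sucla2. Without replicate 2, 17 genes changed sign, without replicate 1, 6, and without replicate 3, 2.

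No paired analysis was possible because all arrays form 1 group, beyond the pairing of both channels within an array that each ratio already makes.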
